A study of Homo sapiens with 4 samples.

Results

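The integrated stress response was examined through 10 regulatory genes that act downstream of the transcription factor ATF4: DDIT3, ATF3, ATF5, CEBPB, CEBPG, NUPR1, TRIB3, SESN2, DDIT4 and PPP1R15A. They were taken by name from the 61541 genes of the count table, each matched 1 Ensembl identifier, and all 10 were among the 19816 genes that passed the filter on mean count. RNA-seq compared 2 populations of MDA-MB-231, a human breast cancer cell line: cells made resistant by serial passage in cadmium sulfate and kept at 10 µM, and parental control cells kept without added cadmium. No allele or agent other than cadmium differed between the groups according to the labels, and whether the resistant cultures came from more than 1 selection is not stated. Each group had 2 libraries (n = 2), named here control 2 and control 3, after their numbers in the count table, and cadmium 1 and cadmium 2, so p-values measure only the spread between these libraries.

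Cells meet several kinds of stress with a common step, the phosphorylation of the translation factor eIF2α by the kinases HRI, PKR, PERK and GCN2. Translation then slows in general while the ATF4 mRNA is translated more, and ATF4 switches on genes for amino acid supply together with a layer of regulators. DDIT3, also called CHOP, ATF3, ATF5, CEBPB and CEBPG are bZIP transcription factors that pair with ATF4 or with each other, and NUPR1 is a small chromatin-associated stress protein. TRIB3 is a pseudokinase that restrains ATF4 and AKT, SESN2 and DDIT4 restrain the growth kinase mTORC1, and PPP1R15A, also called GADD34, recruits the phosphatase that removes the phosphate from eIF2α. Heavy metals including cadmium are among the stresses known to engage this pathway.

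Control 2 differed from control 3 more than the cadmium libraries differed from each other. Over the 12924 genes that averaged 100 normalized counts or more, the log2 ratio of control 3 to control 2 had a robust SD of 0.56, and that of cadmium 2 to cadmium 1 had one of 0.16. Reads assigned to genes numbered 51934729 to 61916007 per library. Of 5 genes typical of this mesenchymal line, 4 were above 10 TPM in every library and SPARC was not (0.860 to 2.46 TPM; TPM is the count per base of gene length, scaled to the same total in every library), while of 7 genes listed as low in it ESR1 and PGR were below 1 TPM throughout. CDH1 was at 1.27 to 7.91 TPM, and the other 4 were above 10 TPM in every library, with EPCAM at 21.3 to 71.9, ERBB2 at 34.9 to 47.5 and KRT8 and KRT18 at 554 to 658, against their listing as low. Of 9 markers of fibroblasts, leukocytes and endothelium, CD3E was at 0 in every library, and the 9 together summed to 7.68 to 18.4 TPM.

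Several promoters of these genes hold short sequences that ATF4 and its partners are known to bind, and these are shown because the genes are grouped by that control. Of the 10 genes, 9 matched 17 promoters in the RefSeq table (GRCh38.p14), and NUPR1 was not searched. Each promoter covers 250 bases before and 50 bases from a transcript start. A CARE, the composite element bound by ATF4 with a C/EBP partner, was searched as TGATGNAA on both strands and was found upstream of ATF3 and CEBPG. A CRE, searched as TGACGTCA, was found upstream of PPP1R15A, and an AP-1 element, searched as TGANTCA, upstream of DDIT3 and ATF5. A C/EBP element, searched as TTGCNNAA, was found for SESN2, PPP1R15A, ATF3 and ATF5. These letters occurred in 2, 1, 3 and 5 of the 17 member promoters, in that order. Among all 35116 promoters they occurred in 3.62%, 1.85%, 7.71% and 10.5%. The sites are given 5′ to 3′ on the strand of the gene, with the matched letters in capitals, and the CARE matches of ASNS and CHAC1, ATF4 targets outside the 10, are added for comparison.
ATF3: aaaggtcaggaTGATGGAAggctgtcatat
CEBPG: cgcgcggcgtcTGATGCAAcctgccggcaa
ASNS: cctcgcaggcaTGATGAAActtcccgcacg
CHAC1: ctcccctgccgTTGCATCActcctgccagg
PPP1R15A: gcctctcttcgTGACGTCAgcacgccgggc
DDIT3: cgcgcgcgcgcaTGACTCAcccacctcctc
ATF5: gggagagtgctgTGACTCAtgctggactct
SESN2: actaaaccgtcTTGCAAAAgtttgcagcat

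The ATF3 site lies at chr1:212565205-212565234, 191 bases before the upstream of its RefSeq starts and outside annotated genes. The CEBPG site lies at chr19:33374060-33374089, 42 bases before a start and in an intron of longer CEBPG transcripts. The PPP1R15A site at chr19:48872352-48872381 begins its match 58 bases before the start, in an exon, annotated as UTR, of another PPP1R15A transcript. The DDIT3 site at chr12:57520738-57520767, on the minus strand, begins its match 238 bases before the start and reaches into an exon of MBD6 on the other strand. The ATF5 site at chr19:49928706-49928735 lies in UTR exons of ATF5 and, on the other strand, of NUP62. The SESN2 site at chr1:28259286-28259315 lies outside annotated genes. The ASNS site at chr7:97872458-97872487, also on the minus strand, and the CHAC1 site at chr15:40953251-40953280 lie in exons, annotated as UTR, of those genes. No member promoter held the palindrome TTGCGCAA, a subset of the C/EBP letters that is present in 0.151% of all promoters. Of the metal response element bound by MTF-1, the letters TGCACNC were absent from the 17 member promoters. The letters TGCGCNC were found in 4 of the 17, which belong to DDIT3, DDIT4 and CEBPB. The shares of all promoters were 12.1% and 19.97%. In DDIT3 the TGCGCNC match abuts the AP-1 letters on the other strand. A match is a description of letters in these windows, and no binding was measured here.

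The question was whether regulators of the integrated stress response differed between cadmium-resistant and control cells. None of the 10 passed an adjusted p-value of 0.1 in DESeq2, a threshold that 1.14% of all tested genes passed (0.601% higher and 0.535% lower). DDIT3, SESN2, TRIB3, PPP1R15A and CEBPB had each cadmium library above each control, and none of the 10 had the reverse. Over all tested genes, 20.3% lay above both controls and 19.9% below both, 40.3% together. The other 5 genes overlapped between the groups. Fewer expressing cells and less RNA per cell cannot be told apart in bulk RNA. At an unadjusted p-value below 0.05 DESeq2 had 4 of the 10 higher and 0 lower, against 3.04% of all tested genes higher and 3.88% lower. The quasi-likelihood test of edgeR and limma-voom each had 2 higher and 0 lower, against 3.68% and 4.09% of their genes higher and 3.71% and 3.31% lower. The smallest adjusted p-value among the 10 was 0.284 in DESeq2, 0.674 in edgeR and 0.669 in limma. In edgeR and limma 0 of all 19241 genes had an adjusted p-value below 0.1. The smallest over all genes was 0.674 in edgeR and 0.656 in limma, so these 2 tools could not set the members apart by a call. The median log2 fold change of the 10 genes was 0.46, and that of all tested genes was -0.02.

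**Figure D1:**
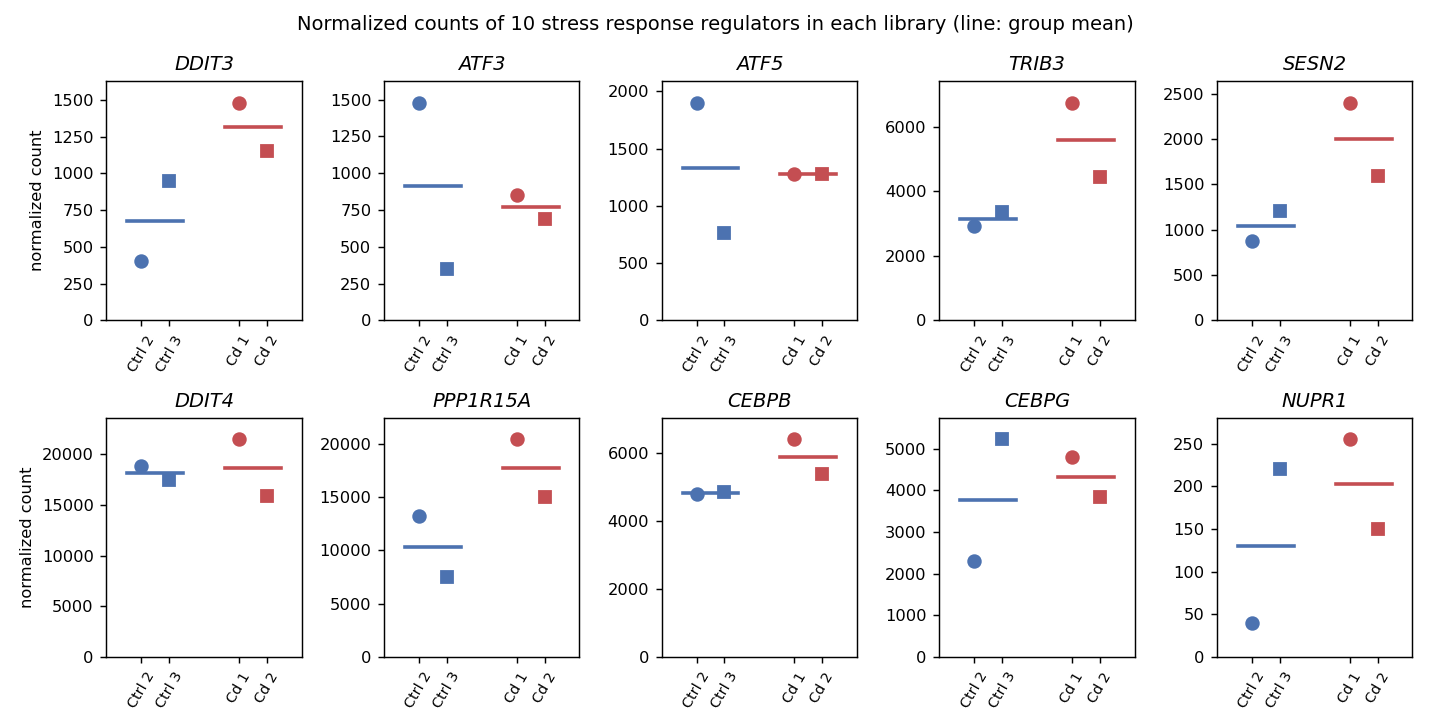
Normalized count (vertical axis, counts divided by the DESeq2 size factor, starting at 0) of each of the 10 regulators in control 2 and control 3 (blue) and cadmium 1 and cadmium 2 (red), with a line at each group mean. DDIT3, TRIB3, SESN2, PPP1R15A and CEBPB show both red points above both blue points, and in every panel cadmium 1 lies above cadmium 2.

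DDIT3 (ENSG00000175197, chromosome 12, 57516588 to 57521737, hg38, minus strand) encodes CHOP, which drives cell death genes when stress persists. Its normalized count was 404 in control 2 and 951 in control 3, against 1480 in cadmium 1 and 1155 in cadmium 2. Both cadmium libraries were above both controls, and control 2 was the lowest of the 4. Cadmium over control gave 0.96 on the log2 scale (SE 0.45, 95% interval 0.087 to 1.83, DESeq2 adjusted p = 0.600). The estimate was 1.69 against control 2 alone and 0.47 against control 3 alone. The 40 expressed neighbours of DDIT3 on chromosome 12 had a median log2 ratio of control 3 over control 2 of 0.39, against 1.23 for DDIT3, and their median log2 ratio of cadmium over control was 0.06. Exons of 3 other genes, among them MARS1 and MBD6 on the other strand, cover 39.6% of the DDIT3 exon bases. Reads were assigned without regard to strand and dropped where genes overlap, so the DDIT3 count is drawn from the remaining bases and its level is uncertain.

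ATF3 (ENSG00000162772, chromosome 1, 212565334 to 212620777, plus strand) is an early-induced repressor and partner of other bZIP proteins. Its normalized count was 1479 in control 2 and 349 in control 3, against 852 in cadmium 1 and 691 in cadmium 2. The cadmium libraries lay between the controls, which differed 4.24-fold. On the log2 scale it differed by -0.24 (SE 0.59, DESeq2 adjusted p = 1.00). Against control 3 alone it was 1.14 (DESeq2 adjusted p = 3.46e-04), and against control 2 alone it was -0.95 (DESeq2 adjusted p = 9.63e-05). Immediate early genes, a list of 16 that respond within minutes to serum or handling, also stood high in control 2: of 14 with a mean of at least 100 normalized counts, control 3 was higher than control 2 in 1, and their median log2 ratio of control 3 over control 2 was -1.31. The part of that difference in ATF3 was not tested.

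ATF5 (ENSG00000169136, chromosome 19, 49928702 to 49933935, plus strand) is the closest relative of ATF4 and is known for its part in mitochondrial stress. Its normalized count was 1900 in control 2 and 763 in control 3, against 1280 in cadmium 1 and 1277 in cadmium 2. The cadmium libraries were nearly equal and lay between controls that differed 2.49-fold. Its log2 fold change was -0.06 (SE 0.45, DESeq2 adjusted p = 1.00). Its direction followed the control used, with 0.74 against control 3 alone and -0.58 against control 2 alone, and both of these passed in DESeq2, with adjusted p-values of 0.00322 and 0.00508. In all, 3.16% of the genes tested against each control alone were called in opposite directions in this way, and ATF3 and ATF5 were the members among them. Exons of IL4I1 and NUP62 on the other strand and of a microRNA cover 22.1% of the ATF5 exon bases.

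CEBPB (ENSG00000172216, chromosome 20, 50190830 to 50192668, plus strand) and CEBPG (ENSG00000153879, chromosome 19, 33373685 to 33382686, plus strand) encode C/EBP proteins that bind CARE elements with ATF4. The normalized count of CEBPB was 4801 in control 2 and 4865 in control 3, against 6405 in cadmium 1 and 5379 in cadmium 2. Its controls were the closest of the 10 genes, and both cadmium libraries were above them. On the log2 scale it differed by 0.29 (SE 0.26, 95% interval -0.22 to 0.79, DESeq2 adjusted p = 1.00). An antisense gene, CEBPB-AS1, covers 12.6% of its exon bases. The normalized count of CEBPG was 2296 in control 2 and 5224 in control 3, against 4812 in cadmium 1 and 3833 in cadmium 2. Control 2 was the lowest library and control 3 the highest, and the log2 fold change of 0.20 (SE 0.42, DESeq2 adjusted p = 1.00) was 0.90 against control 2 alone and -0.27 against control 3 alone.

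NUPR1 (ENSG00000176046, chromosome 16, 28532708 to 28539008, minus strand) was the least abundant of the 10, with 42 to 256 reads per library. Its normalized count was 39.7 in control 2 and 220 in control 3, against 255 in cadmium 1 and 150 in cadmium 2. Control 2 was the lowest, control 3 lay between the cadmium libraries, and the controls differed 5.54-fold. Its log2 fold change was 0.64 (SE 0.73, 95% interval -0.80 to 2.08, DESeq2 adjusted p = 1.00). It was 2.34 against control 2 alone and -0.12 against control 3 alone. An unnamed gene on the same strand shares 16.5% of the NUPR1 exon bases.

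TRIB3 (ENSG00000101255, chromosome 20, 362835 to 397559, plus strand) is a target of ATF4 and CHOP that feeds back on both. Its normalized count was 2915 in control 2 and 3360 in control 3, against 6735 in cadmium 1 and 4427 in cadmium 2. The controls were close to each other, and the cadmium libraries were both higher and differed 1.52-fold. The estimate on the log2 scale was 0.83 (SE 0.32, 95% interval 0.21 to 1.45, DESeq2 adjusted p = 0.331). Leaving out any 1 library kept it between 0.49 and 1.10. Its 25 expressed neighbours near the end of chromosome 20 had a median log2 ratio of -0.08. None of the letters searched was found in the 3 TRIB3 promoters.

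SESN2 and DDIT4 restrain mTORC1 by separate routes, SESN2 as a leucine sensor acting on the GATOR complexes and DDIT4 through the TSC complex. The normalized count of SESN2 (ENSG00000130766, chromosome 1, 28259518 to 28282491, plus strand) was 879 in control 2 and 1202 in control 3, against 2402 in cadmium 1 and 1595 in cadmium 2. Both cadmium libraries were above both controls, and cadmium 1 was 1.51 times cadmium 2. The difference was 0.94 on the log2 scale (SE 0.34, 95% interval 0.27 to 1.62, DESeq2 adjusted p = 0.284), and it lay between 0.61 and 1.20 with any 1 library left out. The 40 neighbours of SESN2 had a median log2 ratio of cadmium over control of -0.29. The normalized count of DDIT4 (ENSG00000168209, chromosome 10, 72273919 to 72276036, plus strand) was 18907 in control 2 and 17523 in control 3, against 21483 in cadmium 1 and 15866 in cadmium 2. Cadmium 1 was above both controls and cadmium 2 below both, a log2 fold change of 0.04 with a 95% interval of -0.51 to 0.59 (DESeq2 adjusted p = 1.00). The upper end of the DDIT4 interval lies below the estimates for DDIT3, SESN2, TRIB3 and PPP1R15A. The 95% intervals of these genes overlap with that of DDIT4, and the difference between genes was not tested.

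PPP1R15A (ENSG00000087074, chromosome 19, 48872421 to 48876058, plus strand) closes the response by returning eIF2α to its active state. Its normalized count was 13201 in control 2 and 7457 in control 3, against 20376 in cadmium 1 and 15032 in cadmium 2. Both cadmium libraries were above both controls, and the nearest pair, cadmium 2 and control 2, differed by 0.19 on the log2 scale. Cadmium over control gave 0.78 on the log2 scale (SE 0.37, 95% interval 0.059 to 1.50, DESeq2 adjusted p = 0.620). Against control 3 alone it was 1.25 (DESeq2 adjusted p = 0.0150), and against control 2 alone it was 0.41 (DESeq2 adjusted p = 0.501). Its constitutive relative PPP1R15B, which recruits the same phosphatase without stress, stood at 4722 normalized counts in control 2 and 5029 in control 3, against 6851 in cadmium 1 and 6054 in cadmium 2. The log2 fold change of PPP1R15B was 0.40 (DESeq2 adjusted p = 0.874).

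**Figure D2:**
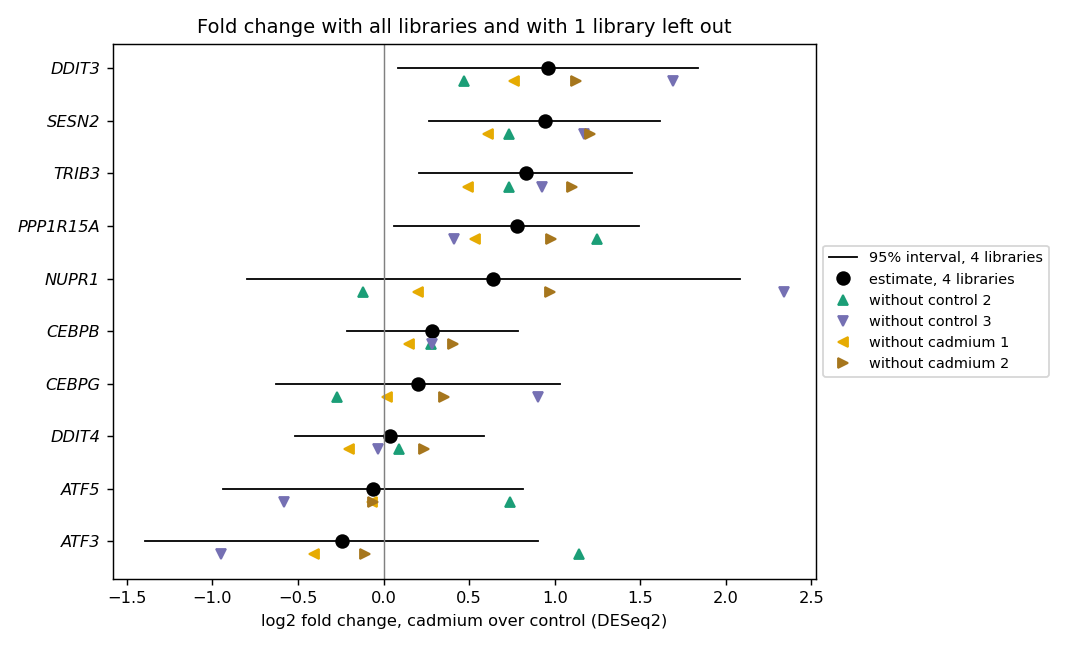
DESeq2 log2 fold change of cadmium over control (horizontal axis) for the 10 regulators, with all 4 libraries (black points with 95% intervals) and with 1 library left out (coloured triangles). The triangles for control 2 and control 3 lie on opposite sides of 0 for ATF3, ATF5, CEBPG, NUPR1 and DDIT4, while DDIT3, SESN2, TRIB3, PPP1R15A and CEBPB stay above 0.

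Which control was used decided how many of the 10 were called. Without control 2, DESeq2 called 3 higher (ATF3, ATF5 and PPP1R15A) and 0 lower, where 7.36% and 7.43% of tested genes were called higher and lower. Without control 3 it called 4 higher (DDIT3, CEBPG, SESN2 and NUPR1) and 2 lower (ATF3 and ATF5), where the shares were 13.5% and 17.7%. No gene of the 10 was called against both controls in the same direction. Without cadmium 1 or without cadmium 2 it called 0, with 0 and 2 of the 10 at an unadjusted p-value below 0.05. The shares called higher and lower there were 0.0807% and 0.0336% without cadmium 1, and 0.0686% and 0.0381% without cadmium 2. The lone library of a group is assumed in these fits to vary like the other group's pair, and of the pairs the cadmium one was the tighter.

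All 10 regulators were higher in cadmium 1 than in cadmium 2. Of all genes with a mean of at least 100 normalized counts, 44.3% were. The median log2 ratio of cadmium 2 over cadmium 1 was -0.40 for the 10 and 0.02 for all genes. NUPR1 (-0.76), TRIB3 (-0.61) and SESN2 (-0.59) were farthest from 0, and 0.557%, 1.21% and 1.29% of genes had a lower ratio. DDIT4 and PPP1R15A followed, both at -0.44, and ATF5 was the exception in size, at -0.0037. Other ATF4 targets leaned the same way, with 32 of 37 higher in cadmium 1 and a median of -0.22. The list for the ATF6 and XBP1 branches of the ER stress response had 16 of 21 higher in cadmium 1 and a median of -0.10, and the kinases and core list had 8 of 20 and a median of 0.01. Genes regulated together are not independent of each other, and the libraries are 1 pair, so this describes these cultures and is no test.

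Between the controls the 10 genes split. ATF3 (-2.08 for the log2 ratio of control 3 over control 2), ATF5 (-1.32) and PPP1R15A (-0.82) were higher in control 2, while NUPR1 (2.47), DDIT3 (1.23) and CEBPG (1.19) were higher in control 3. TRIB3, SESN2, CEBPB and DDIT4 differed by 0.20, 0.45, 0.019 and -0.11. In all, 6 of the 10 were higher in control 3, against 45.5% of genes with a mean of at least 100 normalized counts.

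**Figure D3:**
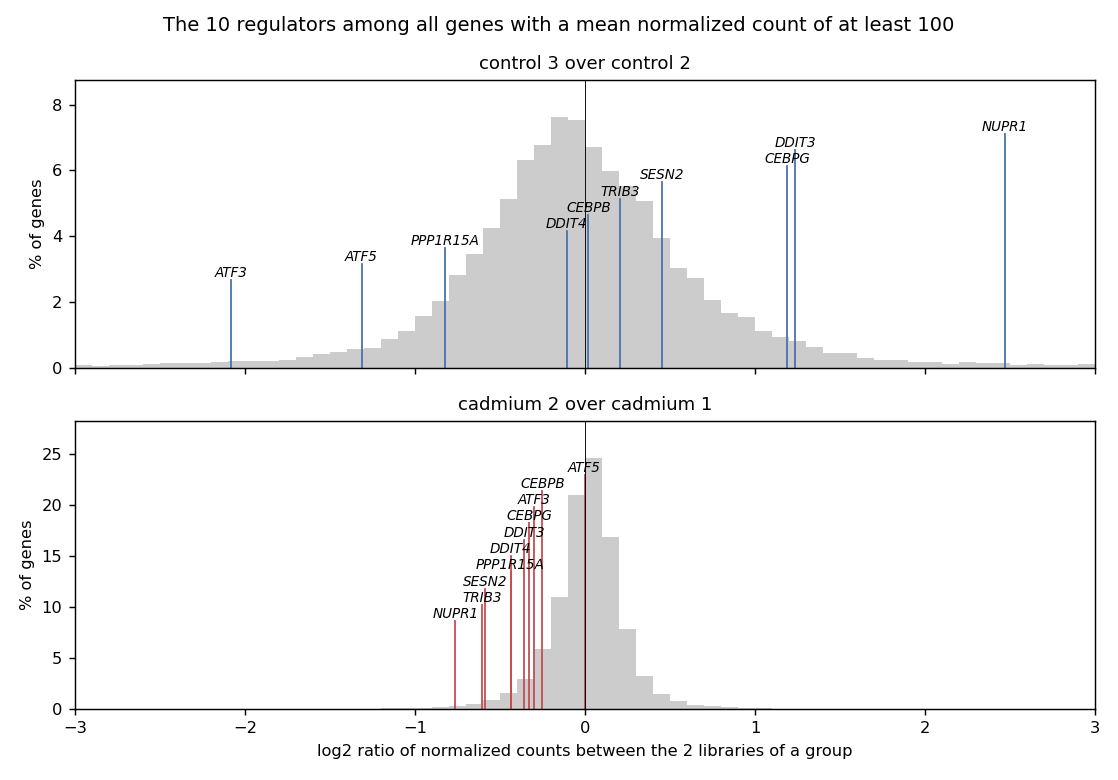
Distribution over 12924 genes (grey bars, percent of genes per 0.1 of log2 ratio, axis limited to -3 to 3) of the log2 ratio between the libraries of a group, with the 10 regulators as coloured lines: control 3 over control 2 above and cadmium 2 over cadmium 1 below. The control ratios of the regulators run from -2.08 to 2.47, and the cadmium ratios lie at or below 0.

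Per base of gene length, the order of the 10 by mean level over the 4 libraries was DDIT4 (664 TPM), PPP1R15A (349), CEBPB (223), TRIB3 (102), CEBPG (76.6), DDIT3 (58.8), ATF5 (34.1), SESN2 (33.7), ATF3 (15.7) and NUPR1 (2.34). DDIT4, between 567 and 797 TPM, did not overlap with the next gene, and NUPR1, between 0.523 and 3.64 TPM, did not overlap with ATF3, between 6.75 and 26.5 TPM. CEBPB stayed above TRIB3 in every library. All other neighbours in this order had overlapping ranges. Gene length includes exon bases shared with other genes, where reads were dropped. The levels of DDIT3 (39.6% of exon bases shared), ATF5 (22.1%), NUPR1 (16.5%) and CEBPB (12.6%) may therefore be understated in this order. DDIT4 was above 99.5% of genes with a read and NUPR1 above 58.5%.

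Upstream of the regulators, ATF4 and the kinases showed no called difference. ATF4 stood at 13592 normalized counts in control 2 and 26252 in control 3, against 26363 in cadmium 1 and 23389 in cadmium 2. Its RNA was low in control 2 alone, and the log2 fold change of 0.32 (SE 0.37, DESeq2 adjusted p = 1.00) was -0.08 without that library. ATF4 is controlled mainly in its translation, which these counts do not show. EIF2AK3, which encodes the ER kinase PERK, had counts of 939 and 858 in control 2 and control 3 and of 574 and 622 in cadmium 1 and cadmium 2. Both cadmium libraries were below both controls, and the log2 fold change was -0.59 (SE 0.28, DESeq2 adjusted p = 0.633). EIF2AK4 (GCN2, the sensor of uncharged tRNA) had a log2 fold change of 0.29, EIF2AK1 (HRI, which responds to heme loss and heavy metals) of -0.29 and EIF2AK2 (PKR, the sensor of double-stranded RNA) of 0.12 (DESeq2 adjusted p = 0.995, 1.00 and 1.00). IMPACT, an inhibitor of GCN2 activation, and PPP1CA, a catalytic subunit of the phosphatase, had log2 fold changes of -0.38 and -0.48 (DESeq2 adjusted p = 0.953 and 0.944). Of 20 genes in this list 0 were called, with 0 higher and 1 lower at an unadjusted p-value below 0.05 in DESeq2 and 1 and 1 in both edgeR and limma, and the median log2 fold change was -0.01.

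Among 41 other ATF4 targets, 38 were tested, and 3 rose by DESeq2, against 0.601% of all tested genes called higher. These 3 serve the supply of sulfur amino acids or asparagine, while the other amino acid supply genes of the list were not called. SLC7A11, the cystine transporter, had normalized counts of 1860 and 2996 in control 2 and control 3 and of 8075 and 9674 in cadmium 1 and cadmium 2, CTH, which makes cysteine, had 383 and 478 against 1200 and 954, and ASNS, asparagine synthetase, had 75.7 and 177 against 510 and 343. Their log2 fold changes were 1.87, 1.32 and 1.76 (DESeq2 adjusted p = 1.77e-05, 0.00560 and 0.0539). SLC7A11 is also a target of the oxidative stress factor NRF2. KLHL24, an adaptor of a ubiquitin ligase, had a log2 fold change of 0.73 (DESeq2 adjusted p = 0.265). CHAC1, which breaks down glutathione and is a known target of ATF4, is named after its values were seen. Its normalized counts were 201 in control 2 and 1119 in control 3, against 3265 in cadmium 1 and 2035 in cadmium 2, above the controls in both cadmium libraries, and the log2 fold change was 2.01 (SE 1.12, DESeq2 adjusted p = 0.793). Over the list the median was 0.28 on the log2 scale and 23 of 38 genes were above 0, against 47.4% of all tested genes. Of the 38, 13 had each cadmium library above each control and 4 had each below, against 20.3% and 19.9% of all tested genes. Leaving out a library moved the median to 0.51 for control 3, to 0.11 for control 2 and to 0.10 for cadmium 1. With cadmium 2 left out the median was 0.41. How many of the 38 were called by DESeq2 changed with the library left out, as it did over all genes. SLC7A11, CTH and ASNS were not called with cadmium 1 or cadmium 2 left out, where few of all genes were. None of these genes passed the adjusted threshold in edgeR or limma, where 0 of all genes passed it. At an unadjusted p-value below 0.05 edgeR and limma had 6 and 7 of the list higher, against 3.68% and 4.09% of their genes.

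The ATF6 and XBP1 branch list, of 21 genes that include ER chaperones, quality control factors, ATF6, XBP1 and ERN1, the sensor that activates XBP1, had 0 calls and a median log2 fold change of -0.11. HERPUD1, an ER quality control factor that ATF4 also induces, had a log2 fold change of 0.63 (DESeq2 adjusted p = 0.671). PDIA4, CALR and PDIA6, which fold proteins in the ER, had log2 fold changes of -0.40, -0.25 and -0.38 (DESeq2 adjusted p = 0.874, 1.00 and 1.00). At an unadjusted p-value below 0.05, DESeq2 had 1 gene higher and 0 lower, and edgeR and limma each had 1 higher and 1 lower.

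Paralogs and bZIP partners of the regulators, a list of 24 genes of which 22 were tested, had 0 calls and a median log2 fold change of 0.0022. SESN3, a sestrin induced by FOXO factors, stood at 255 normalized counts in control 2 and 553 in control 3, against 718 in cadmium 1 and 842 in cadmium 2, with a log2 fold change of 0.95 (DESeq2 adjusted p = 0.572). TRIB1, a relative of TRIB3, had a log2 fold change of 0.46 (DESeq2 adjusted p = 0.823). BATF3, a factor of dendritic cells, and CEBPA, a factor of myeloid, liver and fat cells, had log2 fold changes of -1.08 and -2.58 (DESeq2 adjusted p = 0.796 and 0.789), and each rested on 1 high control, control 2 for BATF3 and control 3 for CEBPA. At an unadjusted p-value below 0.05 there was 1 gene higher in DESeq2, 0 in edgeR and 1 in limma, and 0 lower in each.

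Other programmes that share targets with the regulators were set beside them. Among immediate early genes, which include partners of ATF3, 0 of 16 were called, and IER3, EGR2, EGR3 and ZFP36 had log2 fold changes of 0.74, 1.37, 1.01 and -0.75 (DESeq2 adjusted p = 0.420, 0.978, 0.995 and 0.901). EGR2 and EGR3 had few reads, 4 to 26 and 10 to 54 per library. Among 13 hypoxia-inducible genes, a class to which DDIT4 also belongs, ADM, which encodes a vasodilator peptide, rose with a log2 fold change of 1.12 (DESeq2 adjusted p = 0.0590). VEGFA, P4HA1 and PDK1 had log2 fold changes of 0.83, -0.50 and -0.64 (DESeq2 adjusted p = 0.154, 0.900 and 0.905), and the median of the list was -0.17. Neither ADM nor any other of the 13 was called with cadmium 1 or cadmium 2 left out. Among 15 p53 targets, a class that shares SESN2 and DDIT4, 0 were called, and BTG2, PHLDA3, FAS and TP53INP1 had log2 fold changes of -2.29, -0.98, -0.86 and 0.58 (DESeq2 adjusted p = 0.325, 0.339, 0.565 and 0.718). BTG2 was high in control 2, at 190 normalized counts, against 31.9 in control 3, 17.9 in cadmium 1 and 27.6 in cadmium 2. At an unadjusted p-value below 0.05 in DESeq2, edgeR and limma the immediate early list had 1 gene higher in each, the hypoxia list had 2 higher in each and the p53 list had 1, 0 and 1 higher and 3, 2 and 2 lower. For every list the shares of all genes to set beside such counts are 3.04% higher and 3.88% lower in DESeq2. In edgeR they are 3.68% and 3.71%, and in limma 4.09% and 3.31%.

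**Figure D4:**
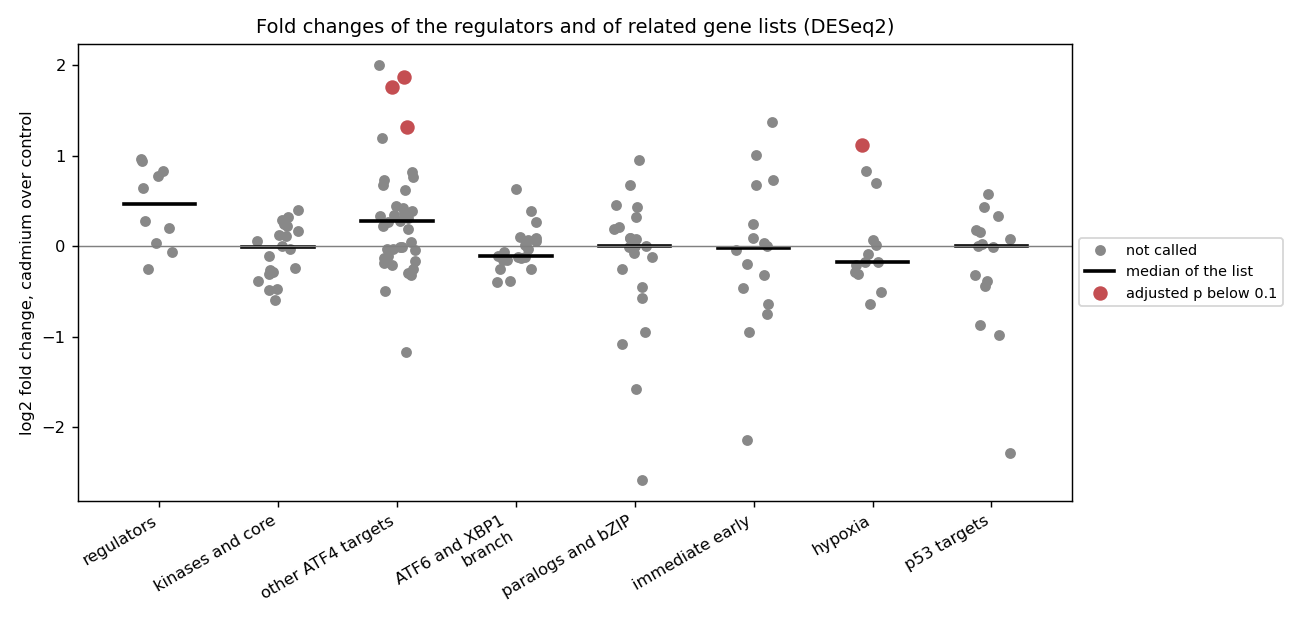
DESeq2 log2 fold change of cadmium over control (vertical axis) for each tested gene of the 10 regulators and of 7 related lists, with called genes in red and the median of each list as a black line. The regulators have a median of 0.46 with no called gene, and the calls are SLC7A11, CTH and ASNS among the other ATF4 targets and ADM in the hypoxia list.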

How the data were processed

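The authors trimmed paired reads with bbduk, aligned them to hg38 with hisat2 and deposited raw read counts per gene from featureCounts 2.0.1 (version per the labels) with the Ensembl 105 annotation. Default options applied, so strand was ignored, reads overlapping several genes were dropped and mates were counted separately, which understates counting error. Control columns carry numbers that do not match the sample titles and were assigned to the group only.

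DESeq2, the tool the study used, was run here as version 1.42.0 (R 4.3.3) and fitted to all 61541 genes with group as the only term. Its two-sided Wald p-values were Benjamini-Hochberg adjusted over genes whose normalized counts averaged 7.69 or more, and called below 0.1. Intervals are the estimate ± the normal 95% range of the standard error. Alternatives included edgeR 4.0.16 and limma 3.58.1. TPM used the deposited gene lengths, and neighbours were up to 20 genes on each side averaging 100 normalized counts or more. Scripts were tested on simulated data. Members and lists were chosen with earlier results of these data known. Named genes were the members, ATF4, the 4 kinases, PPP1R15B and, per list, up to 4 genes of lowest unadjusted p-value averaging 10 normalized counts or more. Only RNA-seq was analysed here.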

Additional observations from a re-analysis of the deposited data

How the results depend on the processing

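With 2 libraries per group, and controls that differed widely, only large changes could be called. No paired analysis was possible because the numbers on the control columns do not match those in the labels. No member was called higher or lower under edgeR, limma, TMM or upper-quartile factors, fits without independent filtering, genes with 10 counts in 2 libraries, protein-coding genes only, halved counts, an adjusted p-value below 0.05 or a null of 0.5 on the log2 scale. Direction turned for ATF3 under limma (0.064), and for ATF5 under limma (0.069) and upper-quartile factors (0.0047).

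Over the whole table edgeR and limma called 0 genes, so every list had 0 calls there. The count of other ATF4 targets called higher, 3, became 0 under edgeR and limma, 5 with protein-coding genes only and 1 with the null of 0.5. The hypoxia count of 1 became 0 under edgeR, limma, an adjusted p-value below 0.05 and the null of 0.5, and 2 with protein-coding genes only or a minimum of 10 counts.

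With 1 library left out, the median of the members ranged from 0.18 (without cadmium 1) to 0.69 (without cadmium 2), and members called ranged from 0 to 4 higher and 0 to 2 lower. Calls ranged from 0 to 5 higher and 0 to 8 lower in the kinases and core list, 0 to 17 and 0 to 3 among other ATF4 targets, 0 to 3 and 0 to 5 in the ATF6 and XBP1 branch list, 0 to 5 and 0 to 5 in the paralog and bZIP list, 0 to 7 and 0 to 8 in the immediate early list, 0 to 3 and 0 to 4 in the hypoxia list and 0 to 4 and 0 to 3 in the p53 list. In each related list the most calls came from leaving out a control, and the same held over all genes. Whether any list differed from all genes in such calls was not tested. Log2 fold changes that turned ranged from -0.95 to 1.14 for ATF3, -0.58 to 0.74 for ATF5, -0.20 to 0.23 for DDIT4, -0.27 to 0.90 for CEBPG, -0.12 to 2.34 for NUPR1, -0.079 to 0.86 for ATF4, -0.070 to 0.33 for EIF2AK2, -0.83 to 0.24 for PDIA6, -4.05 to 0.52 for CEBPA, -1.80 to 0.33 for BATF3, -1.35 to 0.26 for ZFP36 and -1.12 to 0.055 for PDK1. The causes of these moves were not tested.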
